A study of Mus musculus with 2 samples.

Results

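The Gal, Notum and Cthrc1 osteoblasts are 720 single cells from the long bones of mice, 285 in the Control library and 435 in the Dach1OE library, of 60748 cells in the deposited tables and of 55783 cells that passed the filters. A cell belonged to them, and is called a member hereafter, when it had at least 1 unique molecular identifier (UMI, 1 captured RNA molecule) of at least 3 of the 5 genes Gal, Notum, Cdo1, Lurap1l and Cybrd1, and of at least 1 of the osteoblast genes Ifitm5, Cpz and Ibsp. It had to have UMIs of fewer than 4 of 7 osteocyte genes (Dmp1, Phex, Ackr3, Pdpn, Cd109, Ptprz1 and Dkk1), no UMI of Cdh5 or Ptprc, which mark endothelial and blood cells, and fewer than 5 UMIs of the cartilage gene Acan. The rule thus uses measured values, so the levels of these 18 genes in members are given as a description. Cthrc1 is in the name but not in the rule. Members made up 1.08% of the kept cells in Control and 1.48% in Dach1OE.

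The study asked how capillary endothelial cells bear on bone. Cells came from femur and tibia without the epiphysis, digested with collagenase and crushed, and blood lineages were depleted with beads, as were CD45 and CD117 cells. All mice were C57BL/6 at postnatal day 30, of both sexes, and had received tamoxifen. Control mice had the genotype Dach1OE +/f, a conditional Dach1 transgene in the Rosa26 locus without Cre, and Dach1OE mice had the genotype Apj CreERT2 - Dach1OE +/f, in which Cre driven by Aplnr (Apj), a gene of capillary endothelium, switches the transgene on. Each group was 1 library of pooled mice run once, so a difference between groups is a difference between 2 libraries with no replicate library and no test. Every interval is a 95% interval of counting error only, exact except for differences of shares, and the spread between mice is not in it. For levels and ratios of summed UMIs the spread between cells is not in it either. Cells with Xist and no Y-linked UMI, and cells with Y-linked UMIs and no Xist, give a female and a male value within each library.

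Osteoblasts build bone by secreting collagen type I, which is folded and modified inside the cell and cross-linked and mineralized outside it. Mature osteoblasts are known for osteocalcin (Bglap), and some become osteocytes within the matrix. Wnt ligands drive bone formation, and secreted inhibitors restrain them at the bone surface. Notum is such an inhibitor, an esterase that removes the lipid that Wnt ligands need, galanin (Gal) is a neuropeptide, and Cthrc1 is a secreted protein with a collagen triple helix repeat. Cdo1 is the cysteine dioxygenase that opens cysteine breakdown, and Cybrd1 is a ferric reductase of the cell membrane.

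In the mouse genome GRCm38, Gal lies on chromosome 19 from 3409915 to 3414544 on the minus strand, and Notum on chromosome 11 from 120653788 to 120661175, also on the minus strand. Cthrc1 lies on chromosome 15 from 39076932 to 39087121, Lurap1l on chromosome 4 from 80910646 to 80955628 and Cybrd1 on chromosome 2 from 71117923 to 71142926, all on the plus strand. All are protein-coding genes, and UMIs were counted over exons and introns.

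The libraries held 143986818 UMIs from 28720 cells in Control and 166999989 UMIs from 32028 cells in Dach1OE, or 1.51 and 1.45 reads per UMI. The median member held 8507 UMIs of 2062 genes in the Control library, and 8851 UMIs of 2093 genes in the Dach1OE library. They were compared with other osteoblasts, 863 Control and 1094 Dach1OE cells with at least 2 of Ifitm5, Cpz and Ibsp and at most 1 of the 5 selecting genes under the same limits, whose median depths were 6123 and 6296.5 UMIs. Of the members, 131 Control and 128 Dach1OE cells carried Xist alone, and 59 and 118 carried Y-linked UMIs alone. Between the libraries 1049 cell barcodes were shared. Among them were 12 Control and 10 Dach1OE members, and no barcode was a member in both. Scrublet marked 5.26% of Control and 4.37% of Dach1OE members as doublets, against 6.52% and 6.64% of kept cells, and they were left in. Dach1 itself gave 9 UMIs in Control and 9 in Dach1OE members, against 175 and 6513 UMIs in endothelial cells, so the transgene was seen in the endothelium and not above Control in members.

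The selecting genes were unevenly spread among members. Cdo1 was found in 97.2% of Control and 97.5% of Dach1OE members and Lurap1l in 83.9% and 84.1%, whereas Cybrd1 was found in 60.0% and 57.0%. Notum was found in 45.3% and 50.8%, and Gal in 35.4% and 41.4%. Both Gal and Notum were detected in 40 of 285 Control members (14.0%, 95% interval 10.2% to 18.6%) and in 61 of 435 Dach1OE members (14.0%, 10.9% to 17.6%). Neither was detected in 95 members of each library, which carried Cdo1, Lurap1l and Cybrd1 together (33.3% of Control and 21.8% of Dach1OE members). All 5 genes were detected in 4 Control and 16 Dach1OE members. Cthrc1 was found in 92.3% and 97.7% of members, so most members had Cthrc1 while fewer had Gal or Notum.

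Summed over cells, Gal stood at 57.3 UMIs in 1000000 UMIs of these cells (CPM; 95% interval 48.3 to 67.6) in Control members and at 70.7 CPM (62.7 to 79.5) in Dach1OE members. Other osteoblasts had 3.40 and 1.29 CPM, and cells with at least 4 of the 7 osteocyte genes had 14.4 and 24.1 CPM. Marrow stromal cells had at least 3 of Lepr, Adipoq, Pparg, Ebf3 and Lpl, and none of the 3 osteoblast genes. They also had at most 1 of the selecting genes and fewer than 4 of the 7 osteocyte genes. No Gal UMI was found in 718 Control and 414 Dach1OE cells of this class. That allows shares of cells with a Gal UMI of up to 0.418% and 0.725%. It sets no limit on cells that express Gal at lower levels. The class leaves out cells with more of the selecting genes, so the absence of Gal is partly set by its definition. The median depths of marrow stromal cells were 2817 and 2751.5 UMIs. In endothelial cells, which were of similarly low depth with 3371 and 3234 UMIs, 0.198% of Control and 0.358% of Dach1OE cells had a Gal UMI. When each cell with at least 2000 UMIs was thinned to 2000, Gal was left in 13.0% and 12.4% of members, and in 0.366% and 0.0963% of other osteoblasts. No member was below that depth, and 43 Control and 56 Dach1OE other osteoblasts below it were left out.

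Notum stood at 80.8 CPM (70.0 to 92.8) in Control and 84.2 CPM (75.3 to 93.7) in Dach1OE members, against 6.61 and 5.87 CPM in other osteoblasts. The next highest class was chondrocytes (at least 5 Acan UMIs), where Notum had 28.3 and 17.6 CPM. Lurap1l had 196 and 200 CPM in members and 16.1 and 18.1 CPM in other osteoblasts, and it was also found in endothelial cells at 41.3 and 23.0 CPM. Cybrd1 had 93.3 and 88.2 CPM in members, 7.18 and 7.16 CPM in other osteoblasts and 22.2 and 27.3 CPM in chondrocytes. Cdo1 was the least selective of the 5, with 500 and 507 CPM in members and 238 and 259 CPM in other osteoblasts. In osteocyte-gene cells Cdo1 stood at 302 and 413 CPM, between the other classes of the lineage. Each of the 5 genes was highest in members among the 7 classes compared, which the rule itself brings about.

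**Figure D1:**
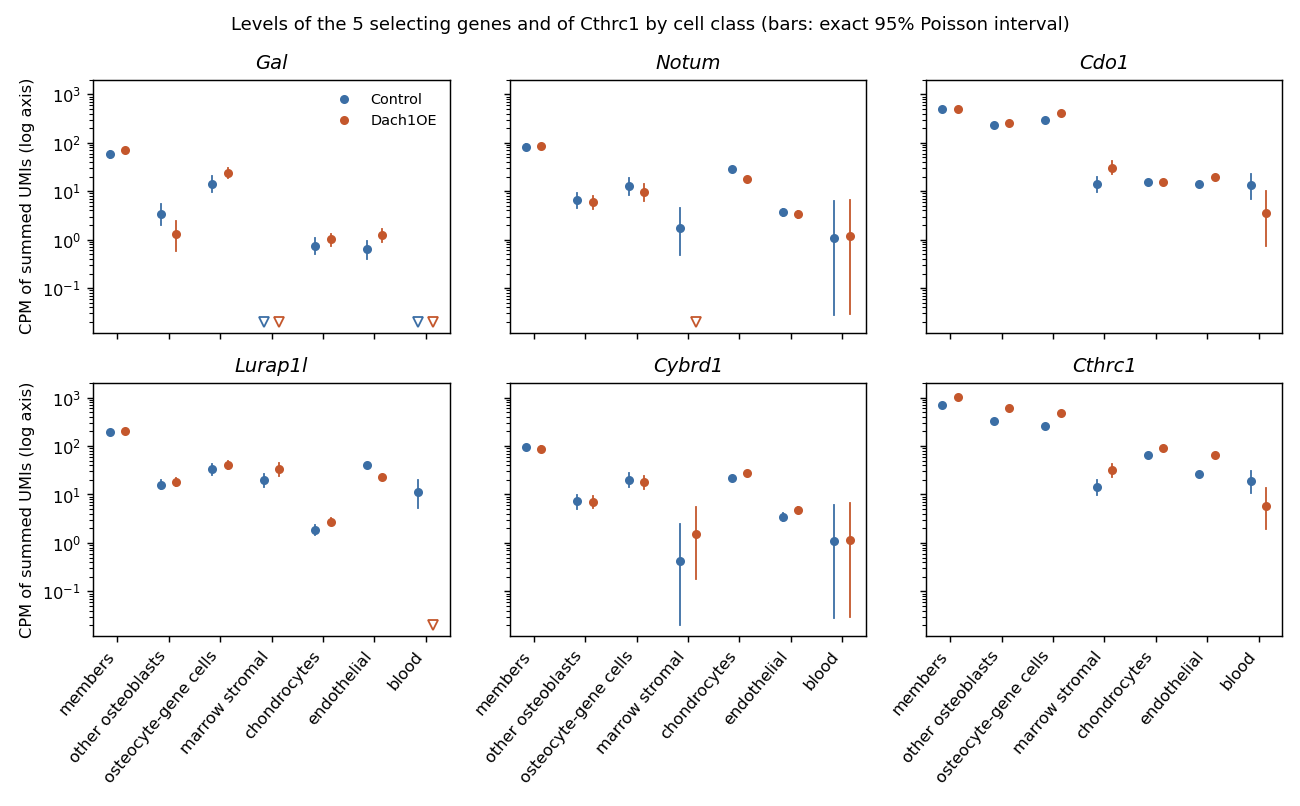
Summed UMIs of the 5 selecting genes and of Cthrc1, as CPM on a log axis, in 7 cell classes (x axis) of the Control library (blue) and the Dach1OE library (orange), with exact 95% Poisson intervals. Open triangles at the lower edge mark classes with no UMI. Members are highest for each gene, and Cthrc1, at 700 and 1043 CPM in members, is also high in other osteoblasts and differs between libraries.

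Cthrc1 was measured at 700 CPM (667 to 734) in Control members and 1043 CPM (1011 to 1075) in Dach1OE members. Other osteoblasts had 329 CPM (314 to 345) and 612 CPM (594 to 631). Members over other osteoblasts gave a log2 ratio of 1.09 (0.99 to 1.18) in Control cells and of 0.77 (0.71 to 0.83) in Dach1OE cells. Per cell, the quartiles of Cthrc1 were 300, 656 and 966 CPM in Control members and 0, 179 and 435 CPM in other Control osteoblasts, so the upper quartile of the others lay below the median of the members. In Dach1OE the quartiles were 603, 982 and 1435 CPM in members and 123, 444 and 843 CPM in other osteoblasts, in the same order. Thinned to 2000 UMIs, Cthrc1 was left in 67.0% of Control and 83.4% of Dach1OE members, against 37.7% and 58.7% of other osteoblasts. In marrow stromal cells 2.06% and 2.30% of thinned cells had a Cthrc1 UMI.

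Cthrc1 went up with the number of selecting genes a cell carried. It is not in the rule, but it is in the name of the members, which were chosen with earlier results of these data known. The order is therefore a description. Among cells that met the other parts of the rule, Control cells with 0, 1 and 2 of the 5 genes had 46.5, 279 and 522 CPM. Control members with 3 and 4 genes had 650 and 880 CPM, and the 4 cells with 5 genes had 719 CPM (478 to 1040). In Dach1OE the values were 127, 552 and 800 CPM outside the limit and 985, 1186 and 1153 CPM inside it. Median depth also went up along this order, from 2985 UMIs in Control cells with 0 of the genes to 7423 with 2, 8425 with 3 and 9115 with 4, and its part in the order was not tested. Cells just inside and just outside the limit thus differed in Cthrc1 by less than cells with 1 and 2 of the genes did. Gal had 20.6 CPM in Control and 21.5 CPM in Dach1OE cells with 2 genes, and 42.3 and 48.9 CPM in those with 3. Notum had 36.4 and 29.1 CPM with 2 genes and 68.4 and 72.3 CPM with 3.

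Bglap, the gene of osteocalcin, followed another order from 2 genes upward. Control cells with 0, 1 and 2 selecting genes had 2272, 12524 and 12755 CPM, and those with 3, 4 and 5 had 10747, 8721 and 668 CPM. Dach1OE cells with 0, 1 and 2 genes had 2903, 12425 and 12570 CPM, and those with 3, 4 and 5 had 10432, 6620 and 5240 CPM. From 0 genes to 1, Bglap and Cthrc1 both rose. Ifitm5 was found in 8.99% of Control and 15.3% of Dach1OE cells with 0 genes, and in 57.1% and 67.0% of those with 1. The part of cells other than osteoblasts in these orders was not tested. From 2 selecting genes upward Bglap was thus lower with each added gene in both libraries, and Cthrc1 was higher up to 4 genes. Bglap, Bglap2 and Bglap3 are near-identical copies, and how their reads were split is uncertain.

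**Figure D2:**
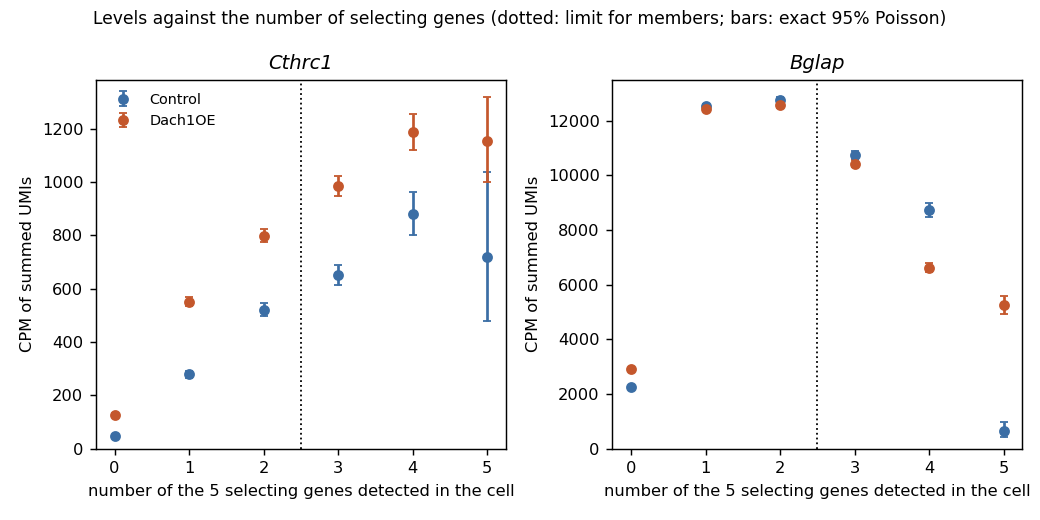
Levels of Cthrc1 (left) and Bglap (right) in CPM of summed UMIs against the number of the 5 selecting genes detected in a cell, for Control (blue) and Dach1OE (orange) with exact 95% Poisson intervals. The dotted line is the limit for members. Cthrc1 climbs from 46.5 and 127 CPM at 0 genes to 880 and 1186 CPM at 4 genes, and Bglap is highest at 1 and 2 genes.

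Outside the 18 genes of the rule, few genes were much higher in members than in other osteoblasts. Of 8550 genes with at least 50 UMIs summed over both cell sets in each library, 8 (0.0936%) were at least 2-fold higher in both libraries with intervals above 0, and 116 (1.36%) were at least 2-fold lower. The rule used this contrast, so nothing is read from these counts. The 8 higher genes were Panx3, Hoxb2, Fosb, Ptn, Peg10, Plppr4, Fam189a2 and Ephx4. The median log2 ratio over all genes was -0.09 in Control and -0.13 in Dach1OE, so a ratio of 0 lies somewhat above the typical gene.

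Panx3, a channel protein of osteoblasts and chondrocytes, had 284 CPM in Control members and 106 CPM in other Control osteoblasts (log2 ratio 1.42, 1.26 to 1.59). In Dach1OE it had 270 and 116 CPM (1.22, 1.09 to 1.35). Panx3 UMIs were found in 51.9% and 53.3% of members and in 25.6% and 28.7% of other osteoblasts. Hoxb2, a homeobox transcription factor, had 95.3 and 41.6 CPM in Control (1.20, 0.93 to 1.47) and 99.1 and 38.8 CPM in Dach1OE (1.35, 1.12 to 1.58). Ptn encodes pleiotrophin, a secreted heparin-binding growth factor, and had 63.0 and 25.7 CPM in Control (1.29) and 80.6 and 38.8 CPM in Dach1OE (1.05). The imprinted gene Peg10 had 33.9 and 16.8 CPM in Control (1.01) and 27.9 and 9.89 CPM in Dach1OE (1.50). Plppr4, Fam189a2 and Ephx4 were sparse, with 10.1 to 20.3 CPM in members and 4.01 to 7.74 CPM in other osteoblasts. Among the next genes in order of the smaller ratio were Rbp4, which encodes the plasma carrier of retinol (41.6 and 13.6 CPM in Control, 37.8 and 19.2 CPM in Dach1OE), and then Plb1, Tnfrsf26, Plaur, Gm40193 and Fos, whose ratios lay between 0.89 and 1.36.

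**Figure D3:**
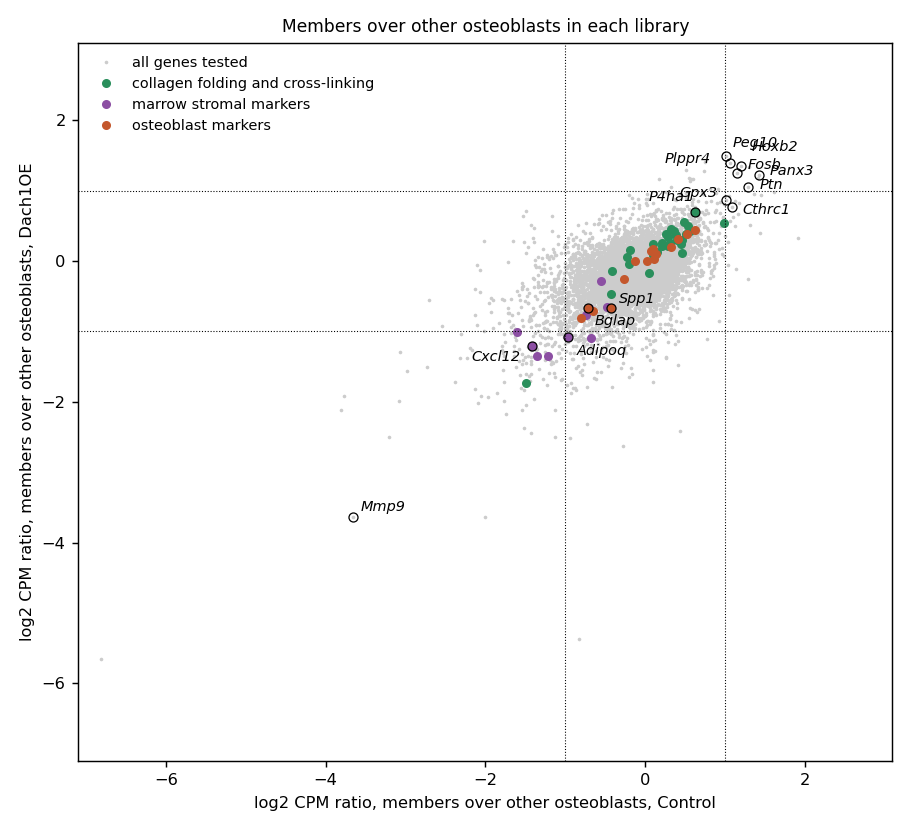
Log2 CPM ratio of members over other osteoblasts for each gene tested, in Control (x axis) and Dach1OE (y axis). Coloured points are the collagen folding and cross-linking genes (green), osteoblast markers (orange) and marrow stromal markers (purple), and dotted lines mark 2-fold. Panx3, Ptn, Hoxb2, Fosb, Plppr4 and Peg10 lie past 2-fold in both libraries, the green points lie mostly above 0 and the purple points below it.

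The gene groups are described by how many genes had intervals above 0, or below 0, in both libraries. Over all genes tested these were 364 of 8550 (4.26%) and 695 of 8550 (8.13%), in the same contrast that the rule used, so the groups are a description. Genes for the folding, modification and cross-linking of collagen were the group with most genes on the upper side, 17 of 29 above 0 and 1 below, with medians of 0.29 in Control and 0.25 in Dach1OE. P4ha1, a subunit of collagen prolyl 4-hydroxylase, had 262 CPM in Control members and 169 CPM in other osteoblasts (0.63, 0.48 to 0.77), and 291 and 180 CPM in Dach1OE (0.70, 0.58 to 0.81). Serpinh1, the collagen chaperone HSP47, had 4370 and 3051 CPM in Control (0.52) and 4212 and 3244 CPM in Dach1OE (0.38). Fkbp10 (0.56 and 0.43), a prolyl isomerase of the endoplasmic reticulum, P3h4 (0.99 and 0.55) and Pcolce (0.49 and 0.55), an enhancer of procollagen cleavage, were on the same side. Of the 18 collagen chains tested, 5 were above 0 and 3 below. Col1a1 and Col1a2, the chains of collagen type I, were close to the other osteoblasts with ratios of 0.08 and 0.11 in Control and 0.15 and 0.16 in Dach1OE, and Col5a1 stood at 0.34 and 0.33.

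Of 15 osteoblast markers, 7 were above 0 and 5 below in both libraries. Higher were Sp7, the transcription factor osterix (0.32 in Control and 0.20 in Dach1OE), Alpl, the alkaline phosphatase of mineralization (0.42 and 0.31), Smpd3 (0.52 and 0.38) and Kcnk1 (0.62 and 0.44). Lower were Bglap (-0.72 and -0.67), Bglap2 (-0.66 and -0.71), Bglap3 (-0.80 and -0.81), Spp1, the gene of osteopontin (-0.42 and -0.67, and 0.05 in Control cells with Xist), and Runx2 (-0.27 and -0.25). The 15 markers summed to 411612 CPM in Control and 410617 CPM in Dach1OE members, near the 397191 and 383123 CPM of other osteoblasts. The summed endothelial markers were 62.2 and 54.2 CPM in members and the summed chondrocyte markers 984 and 1224 CPM. In the 95 Control members with both Xist and Y-linked UMIs or with neither, Col1a1, Col1a2 and Sparc alone had 189947, 141564 and 68593 CPM. The first sum thus says little of the lower markers. The rule asked for an osteoblast gene in both sets and limited Cdh5 and Acan, so the sums are a description. Among 18 transcription factors of the skeleton tested, 4 were above 0 and 2 below. Creb3l1, a membrane-bound factor that acts on collagen genes, had 976 and 662 CPM in Control (0.56) and 922 and 655 CPM in Dach1OE (0.49). Tcf7, which acts with beta-catenin on Wnt targets, had 84.4 and 46.3 CPM in Control (0.87) and 75.5 and 51.4 CPM in Dach1OE (0.55).

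Other genes of the Wnt pathway lay on both sides. Of 7 Wnt inhibitors tested besides Notum, 1 was above 0 and none below, and Dkk3 had the ratios 0.58 in Control and 0.84 in Dach1OE. Of 9 Wnt receptors 3 were below 0 and none above, and of 9 Wnt targets 2 were above and 1 below. The group of galanin and other neuropeptides with their receptors had only 2 genes with enough UMIs besides Gal itself. Of these, Cartpt, a neuropeptide precursor, had 64.2 and 45.0 CPM in Control (0.51) and 51.5 and 21.1 CPM in Dach1OE (1.29), from 3.51% of Control and 4.14% of Dach1OE members. Of 10 genes of cysteine and taurine metabolism besides Cdo1, 1 was above 0 and 3 below, the former being the secreted glutathione peroxidase Gpx3 with 978 and 484 CPM in Control (1.02) and 754 and 416 CPM in Dach1OE (0.86). Of 10 genes of iron handling besides Cybrd1, none was above 0 and 4 were below, among them the transferrin receptor Tfrc (-0.94 and -1.06) and the iron exporter Slc40a1 (-1.58 and -1.42).

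Among genes of early osteogenic and progenitor cells, of other cell types and of the cell cycle, no single gene was above 0 in both libraries. Of 15 early osteogenic genes 8 were below 0 and none above, with medians of -0.83 in Control and -0.82 in Dach1OE. Mmp13, a collagenase, had 205 CPM in Control members against 740 CPM in other osteoblasts (-1.85), and 142 against 521 CPM in Dach1OE (-1.88). Of 8 genes of the insulin-like growth factor pathway 5 were below 0, Igfbp5 with -0.99 and -1.28, and of 20 S and G2/M phase genes 9 were below 0. Of 10 marrow stromal markers 8 were below 0, and their summed level was 658 CPM in Control members and 1538 CPM in other osteoblasts, and 341 and 739 CPM in Dach1OE. Of 8 chondrocyte markers tested 6 were below 0, and the summed level was 984 against 1868 CPM in Control and 1224 against 1892 CPM in Dach1OE. Of 7 mural cell markers tested 6 were below 0. Of 6 fibroblast and tendon markers tested 1 was below 0 and none above. Their summed level was higher in members, 2947 against 2833 CPM in Control and 3069 against 2927 CPM in Dach1OE. Among the lowest genes were those of muscle (Acta1, Mylpf), of red blood cells (Hbb-bs, Hba-a2 and Hbb-bt) and Tal1, Wisp2 and Heyl, found in at most 5.58% of either set in each library, and Mmp9, a gene of osteoclasts, with 13.3 against 168 CPM in Control and 14.7 against 183 CPM in Dach1OE. In Control cells with Xist alone the ratio of Mmp9 was 0.10. The part of these other cell types in the ratios of the remaining genes was not tested.

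Immediate-early genes, which respond to stimuli and to dissociation of tissue, stood on the upper side, 6 of 15 above 0 and none below. Fosb had 46.8 and 21.2 CPM in Control (1.15, 0.76 to 1.53) and 58.8 and 24.6 CPM in Dach1OE (1.25, 0.96 to 1.55). Fos had 116 and 62.7 CPM in Control (0.89) and 187 and 96.4 CPM in Dach1OE (0.96). Fosb UMIs were in 12.6% and 15.2% of members, so that a minority of the cells carried the difference. In Control cells with Y-linked UMIs the ratio of Fos was -0.60 (-1.19 to -0.05), against the pooled direction.

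When the 18 genes of the rule were left out and the 4243 cells of both libraries that were members or had at least 2 of the 3 osteoblast genes, with any number of osteocyte genes, were clustered on a graph, members did not form a cluster of their own. They made up 15.9% of the clustered cells in Control and 17.8% in Dach1OE. Cluster 2, led by Panx3, Gpx3 and Ptn and with Cthrc1 among its 10 leading genes, held 38.6% of Control and 37.0% of Dach1OE members, while it held 15.8% and 19.7% of all clustered cells. Members were 38.7% and 33.4% of its cells. Cluster 1, led by Bglap2, Bglap3 and Bglap, held 30.2% and 32.0% of members, and members were 12.9% and 14.6% of its cells. Cluster 6, led by Mmp13, Tnc and Postn, held 13.3% and 8.74% of members, and cluster 5, led by Fosb, Fos and Egr1, held 5.26% and 8.28%. Members were 24.2% and 32.1% of the cells of cluster 5. In cluster 9, led by genes of dividing cells, they were 18.4% of Control cells (7 of 38) and 35.1% of Dach1OE cells (13 of 37). Cluster 4, in which 88.0% and 88.8% of cells had at least 4 of the osteocyte genes, held 1 Control and 3 Dach1OE members. Cluster 7, led by genes of red blood cells, cluster 10, led by genes of platelets, and cluster 12, led by genes of mural cells, held 5, 6 and 2 Control members and 14, 8 and 8 Dach1OE members. Clusters also differed in depth. Median UMIs in Control and Dach1OE were 9060 and 8661 in cluster 5, 7498 and 7351 in cluster 2 and 7809.5 and 7786 in cluster 1. They were 5444 and 5605 in cluster 6, and 3424 and 3457 in cluster 3, where members were 1.64% and 4.27% of cells. Deeper cells meet the rule more easily, and the part of depth in these shares was not tested.

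**Figure D4:**
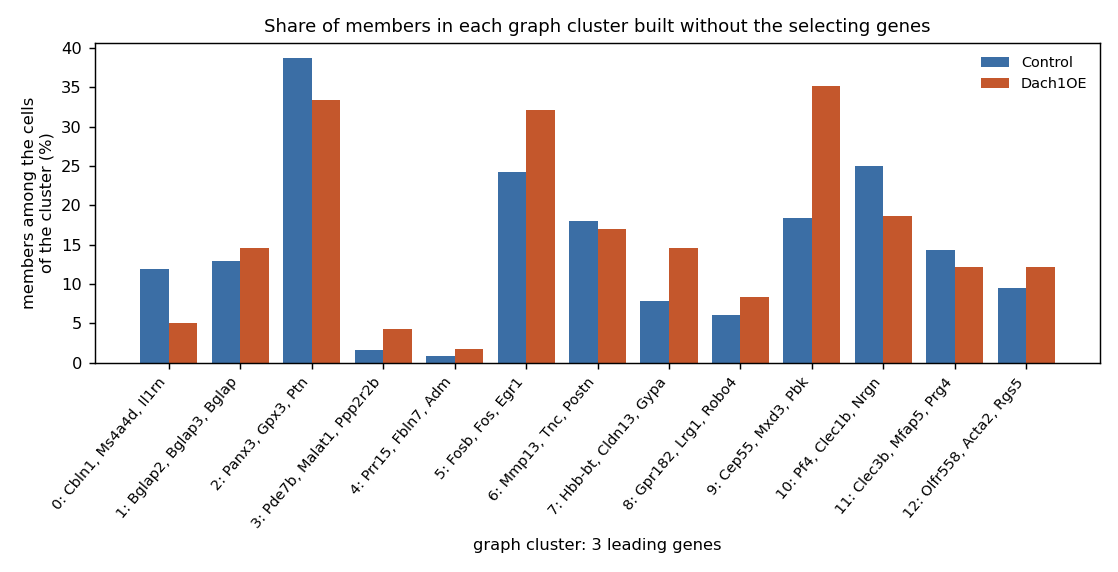
Members as a percentage of the cells of each graph cluster in Control (blue) and Dach1OE (orange), with each cluster's number and 3 leading genes on the x axis. Clusters were built without the genes of the rule, and they differ in depth. Members are 38.7% and 33.4% of cluster 2, 18.4% and 35.1% of the small cluster 9, and at most 4.27% in clusters 3 and 4, and several smaller clusters hold under 100 cells.

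Within members, cells with Gal were compared with cells without it, 101 against 184 in Control and 180 against 255 in Dach1OE, a split made after the values of Gal had been seen. Median depth was 9131 against 8226 UMIs in Control and 9204 against 8439 UMIs in Dach1OE. Of 4355 genes, 3 were 2-fold higher in both libraries (0.0689%) and 4 were 2-fold lower (0.0918%). Mmp13 was the lower gene with most UMIs, with 48.3 CPM in Control members with Gal and 303 CPM in those without, and 47.9 and 217 CPM in Dach1OE. The difference rested on few cells, since 8 Control and 6 Dach1OE members without Gal had 10 or more Mmp13 UMIs, against 1 and 3 with Gal. Cthrc1 had 856 CPM in Control members with Gal and 603 CPM in those without, and 1109 and 990 CPM in Dach1OE. Panx3 had 294 and 278 CPM in Control and 262 and 277 CPM in Dach1OE, so it was nearly level between members with and without Gal. Car1, a carbonic anhydrase, Mcpt8, a protease of basophils, and Peg10 were the higher genes, and Cartpt, Ppbp and Pclaf were lower beside Mmp13.

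Members were also split by each of the other selecting genes. Of the 4355 genes, 10 were 2-fold higher in both libraries with Cdo1 (0.23%) and 2 lower (0.0459%), though only 8 Control and 11 Dach1OE members lacked Cdo1. With Lurap1l 21 genes were higher (0.482%) and 0 lower (0%), and with Cybrd1 3 were higher (0.0689%) and 12 lower (0.276%). The split by Notum is given in more detail, a choice made after values were seen. Members with Notum were 129 of 285 in Control and 221 of 435 in Dach1OE, with median depths of 8015 and 8356 UMIs against 8804 and 9092.5 UMIs without it. By the rule a member without Notum carries at least 3 of the other 4 selecting genes, and Cybrd1 was found in 82.7% and 77.1% of members without Notum and in 32.6% and 37.6% of those with it. Of the 4355 genes, 12 were 2-fold higher in both libraries with Notum (0.276%) and 1 was lower (0.023%). Serpine2, a secreted protease inhibitor, had 1604 CPM in Control members with Notum and 557 CPM in those without (log2 ratio 1.53, 1.40 to 1.65), and 1206 and 410 CPM in Dach1OE (1.56, 1.44 to 1.67). Serpine2 was found in 87.6% and 75.6% of these Control cells and in 85.1% and 77.6% of these Dach1OE cells, and 10 or more UMIs were found in 40 against 20 cells in Control and 59 against 21 cells in Dach1OE.

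Wif1, which like Notum is a secreted inhibitor of Wnt ligands, had 246 and 110 CPM in Control members with and without Notum (1.16, 0.87 to 1.45) and 199 and 62.1 CPM in Dach1OE (1.68, 1.38 to 1.98). Wif1 was found in 61.2% of Control members with Notum against 34.6% without, and in 51.6% against 32.7% in Dach1OE. Spp1 had 1603 and 591 CPM in Control (1.44), and 1195 and 554 CPM in Dach1OE, where 1 cell with Notum held 440 UMIs. Cp, the copper-binding ferroxidase ceruloplasmin, had 209 and 77.0 CPM in Control (1.44) and 163 and 66.1 CPM in Dach1OE (1.30). The lower gene was Col3a1, with 36.8 CPM in Control members with Notum and 471 CPM in those without, and 93.2 and 205 CPM in Dach1OE. It rested on few cells, since 10 or more Col3a1 UMIs were in 0 against 15 Control and 3 against 11 Dach1OE members. In Dach1OE 1 cell with Notum held 63 of 180 UMIs. The other higher genes were Cartpt, Pclaf, Top2a, Olfml2b, Lrrc17, Ctsc, Ccnd1 and Mrpl36. Of the higher genes, Cartpt, Pclaf, Top2a, Olfml2b, Wif1 and Cp were also 2-fold lower in both libraries in members with Cybrd1 than in those without it.

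Panx3 and Bglap also differed with Notum, though by less than 2-fold in Dach1OE. Panx3 had 406 CPM in Control members with Notum and 193 CPM in those without, and 342 and 202 CPM in Dach1OE, from 67.4% against 39.1% of cells in Control and 60.6% against 45.8% in Dach1OE. Bglap had 6286 CPM in Control members with Notum and 13066 CPM in those without, and 7506 and 10907 CPM in Dach1OE. Cthrc1 was nearly level, with 713 and 690 CPM in Control and 1044 and 1042 CPM in Dach1OE. The split by Cybrd1 gave the mirror image. Serpine2 had 601 CPM in Control members with Cybrd1 and 1707 CPM in those without, and 578 and 1139 CPM in Dach1OE. Panx3 had 226 and 385 CPM in Control and 219 and 348 CPM in Dach1OE, and Bglap had 12622 and 5896 CPM in Control and 10429 and 7428 CPM in Dach1OE. Because the rule ties the selecting genes to each other within members, the share of Notum and of Cybrd1 in these differences cannot be told apart.

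The share of members among osteoblast-lineage cells was compared at equal depth, because a cell of more UMIs meets the rule more easily. Each cell with at least 2000 UMIs was thinned to 2000, and the 5112 Control and 5766 Dach1OE kept cells below that depth were left out. Of the thinned cells with at least 2 of the 3 osteoblast genes, 28 of 1338 in Control met the rule (2.09%, 1.39% to 3.01%). In Dach1OE 48 of 1888 did (2.54%, 1.88% to 3.36%). The difference was 0.45 percentage points (-0.66 to 1.48), within counting error. Over all cells with at least 1 of the 3 osteoblast genes, the limit of the rule itself, it was 0.50 points (0.06 to 0.97), from 39 of 4442 and 58 of 4198 cells, an interval that leaves out 0. Without thinning the shares were 15.3% (272 of 1780) and 17.6% (430 of 2445), a difference of 2.31 points (0.03 to 4.54). At equal depth the difference had opposite signs in the sexes. Among Xist cells the thinned share was 2.76% in Control and 1.10% in Dach1OE (15 of 544 and 6 of 543), a difference of -1.65 points (-3.49 to 0.03) that is within counting error. Among cells with Y-linked UMIs it was 0.408% and 4.01% (1 of 245 and 19 of 474), a difference of 3.60 points (1.25 to 5.79). With 1 mouse pool a group, sex and mouse cannot be told apart.

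The selecting genes chose the members in both libraries, so their ratios between the libraries are a description of the chosen cells. Notum had a log2 ratio of Dach1OE over Control of 0.06 (-0.20 to 0.32), Cdo1 of 0.02 (-0.08 to 0.12), Lurap1l of 0.03 (-0.14 to 0.19) and Cybrd1 of -0.08 (-0.32 to 0.17). Gal had a ratio of 0.30 (0.01 to 0.60), with -0.27 (-0.80 to 0.26) in Xist cells, from 59.6 to 49.5 CPM, and 1.15 (0.48 to 1.89) in cells with Y-linked UMIs, from 41.4 to 92.2 CPM. In other osteoblasts, on 18 and 9 UMIs, it was -1.40 (-2.74 to -0.17).

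Cthrc1 was higher in Dach1OE members, with a ratio of 0.58 (0.49 to 0.66). It was higher in both sexes, from 708 to 950 CPM in Xist cells (0.42, 0.29 to 0.56) and from 689 to 1072 CPM in cells with Y-linked UMIs (0.64, 0.47 to 0.81). In other osteoblasts the ratio was 0.89 (0.81 to 0.98), larger than in members, so the higher level in Dach1OE was not particular to them. The classes with little Cthrc1 also had more of it in Dach1OE, with 26.5 and 66.0 CPM in endothelial cells, 65.2 and 90.6 CPM in chondrocytes and 14.3 and 31.6 CPM in marrow stromal cells. In blood cells it had 18.7 and 5.87 CPM.

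Over 7493 genes with at least 50 UMIs summed over the members of both libraries, 40 were at least 2-fold higher in Dach1OE (0.534%) and 43 lower (0.574%), and 38 (0.507%) and 37 (0.494%) had the same sign in both sexes. Fewer of these calls were made within a sex or without marked doublets. The minimum of 50 UMIs was applied again in each of these subsets, so genes below it there were not tested. Of the 40 and 43 genes, 4 and 9 were called in Xist cells, 1 and 3 in cells with Y-linked UMIs, where fewer cells entered, and 23 and 22 when the cells marked by Scrublet were left out. In all, 33 genes were called higher and 47 lower in Xist cells, and 34 and 29 in cells with Y-linked UMIs. Most calls within a sex were thus of other genes than those called over all members. Intervals lay above 0 for 364 genes (4.86%) and below 0 for 427 (5.7%). March3, a ubiquitin ligase gene, was the lowest by ratio, with 121 CPM in Control and 23.6 CPM in Dach1OE members (-2.36, -2.71 to -2.02). It was found in 179 of 285 and 78 of 435 members and was also lower in Dach1OE among other osteoblasts, with 124 and 28.8 CPM (-2.11). Bglap3 had 622 and 249 CPM (-1.32, -1.44 to -1.20), and a close ratio in other osteoblasts (-1.31). Apba2 had 34.3 and 12.4 CPM (-1.47) and -1.54 in other osteoblasts. The remaining lowest genes were sparse, with at most 94 UMIs in Control members, namely Abi3bp, Hspa1b, Fzd1, a Wnt receptor, Igf2bp2, Spata5, Pcdh9, Tollip, Prelp, Cpa3, Cyp1b1, Pde7b and Pappa. Of the Control UMIs, 22 of 40 for Cpa3 and 31 of 94 for Prelp were in 1 cell. Without the top cell of each library these genes were at -1.03 and -1.19. Prelp was at -0.46 (-1.24 to 0.31) in Xist cells and -3.71 in cells with Y-linked UMIs.

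The highest genes were sparse as well, and for some a large part of the UMIs was in 1 cell. Rgs5, a gene of pericytes, had 19.4 and 90.7 CPM (2.23, 1.79 to 2.69), in 13 Control and 32 Dach1OE members. Of its UMIs, 35 of 48 in Control and 105 of 358 in Dach1OE were in 1 cell. The ratio without the top cell of each library was 3.61. With all cells it was 2.90 in Xist cells, 0.65 (0.12 to 1.22) in cells with Y-linked UMIs and 0.83 in other osteoblasts. Mgp, a matrix inhibitor of calcification, had 15.3 and 66.9 CPM (2.12), with 146 of 264 UMIs in 1 cell, and 1.35 without the top cell of each library. Ppbp, a chemokine of platelets, had 25.8 and 87.7 CPM (1.76), with 148 of 346 UMIs in 1 cell, and 1.64 without the top cell of each library. Nr4a1, an immediate-early nuclear receptor, had 4.44 and 11.2 CPM (1.33), on 11 and 44 UMIs. The others among the highest 15 were Gm11290, Ly6a, Nup93, Stk32a, Rangrf, Prkar2b, Atp1b2, Hist2h3c1, Mustn1, Lsm10 and Tagln, with 10.4 to 16.2 CPM in Dach1OE members. Summed mural markers were 114 CPM in Control and 225 CPM in Dach1OE members, and their part in these ratios was not tested.

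Matricellular proteins and small proteoglycans were the group with most lower genes, 4 of 19 past 2-fold lower and 9 with an interval below 0, against 4 above. The median of the group was -0.34, and -0.01 over all genes tested. Of the genes of this group described next, only Fmod was past 2-fold. Fmod, the collagen-binding fibromodulin, had 172 and 74.8 CPM (-1.20, -1.42 to -0.98), and it was lower in Xist cells (-1.70) and in cells with Y-linked UMIs (-1.42), with -0.31 (-0.72 to 0.10) in members that had both of these sex marks or neither. In other osteoblasts Fmod had 69.9 and 89.4 CPM (0.36, 0.17 to 0.54). Tnn, a tenascin, had 45.2 and 23.6 CPM in members (-0.94) and 21.7 and 33.1 CPM in other osteoblasts (0.61). Tnc, another tenascin, had 319 and 185 CPM in members (-0.79), with -0.30 in other osteoblasts. Postn, which encodes periostin of the periosteum and of young matrix, had 44.0 and 23.6 CPM (-0.90), with -0.43 in other osteoblasts. Of 12 early osteogenic genes 7 had an interval below 0 and 2 above. Among them Col3a1, a chain of collagen type III, had 285 and 150 CPM in members (-0.92, -1.08 to -0.76) and 237 and 307 CPM in other osteoblasts (0.37, 0.27 to 0.48). Col3a1 was detected in 71 Control and 97 Dach1OE members, so these ratios rest on a minority of the cells. Among members with 4 or more of the selecting genes the ratio of Col3a1 was 2.63 and that of Cxcl12 2.58, against the direction in all members.

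Markers of marrow stromal cells were lower in Dach1OE over all members, though not in each set of them, 5 of 6 with an interval below 0 and none above. Their median ratio was -0.90 in all members, -1.68 in Xist cells and -0.04 in cells with Y-linked UMIs, where Lepr was at 0.50 (-0.57 to 1.69) and Kitl at 0.23 (-1.01 to 1.63), against -1.70 and -1.65 in Xist cells. Cxcl12, the chemokine that holds blood stem cells in the marrow, had 353 and 177 CPM (-0.99, -1.14 to -0.85) in members and 937 and 411 CPM in other osteoblasts (-1.19), and was at -1.92 in Xist cells and -2.23 in cells with Y-linked UMIs. In the 95 Control and 189 Dach1OE members with neither mark or with both, Cxcl12 went the other way, from 54.7 to 279 CPM (2.35, 1.90 to 2.83), with 219 of the 470 Dach1OE UMIs in 1 cell. It was found in 81 Control and 72 Dach1OE members, with 174 of 873 and 219 of 699 UMIs in 1 cell. Lpl, lipoprotein lipase, had 110 and 47.1 CPM (-1.22), with -2.18 in Xist cells and -0.26 (-1.31 to 0.84) in cells with Y-linked UMIs, and Adipoq, the gene of adiponectin, 62.6 and 26.1 CPM (-1.26), in 17 and 10 members. Igfbp5, a binding protein of insulin-like growth factors, had 278 and 123 CPM (-1.18), and -0.88 in other osteoblasts. In members without a single sex mark Lpl was at 2.69 (1.66 to 3.93), on 8 Control and 108 Dach1OE UMIs, Adipoq at 1.80 (0.65 to 3.18), Kitl at 1.30 (0.02 to 2.85) and Igfbp5 at 0.62 (0.23 to 1.01), all against the direction over all members. Among members with 4 or more of the selecting genes Lpl was at 0.93 and Igfbp5 at 0.80. The summed marrow stromal markers in members were 658 CPM in Control and 341 CPM in Dach1OE, marrow stromal cells were 2.71% and 1.41% of kept cells, and the part of such cells in these ratios was not tested.

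Most genes of the mature osteoblast differed between the libraries by less than 2-fold, and some had opposite signs in the sexes. Of 15 osteoblast markers 3 had an interval above 0 and 5 below, and 1 was past 2-fold lower, which was Bglap3. Col1a2 had a ratio of 0.01, and Alpl of 0.10 (-0.0037 to 0.20), and collagen folding genes had a median of 0.01, with 5 of 27 above 0 and 2 below. Bglap was -0.14 (-0.16 to -0.11) in all members, 0.34 in Xist cells, from 8430 to 10695 CPM, and -0.97 in cells with Y-linked UMIs, from 13385 to 6831 CPM. Panx3 was -0.07 (-0.21 to 0.07) in all members, -0.68 (-0.91 to -0.45) in Xist cells and 0.75 (0.44 to 1.06) in cells with Y-linked UMIs. Gpx3 was -0.38 (-0.45 to -0.30) in all members, -1.23 in Xist cells and 0.06 in cells with Y-linked UMIs. Fos was higher in both sexes, at 0.61 and 1.39, with 0.69 (0.49 to 0.89) in all members and 0.62 in other osteoblasts. Of 13 immediate-early genes 6 had an interval above 0 and 1 below, and their median was 0.29 in all members, -0.39 in Xist cells, 0.75 in cells with Y-linked UMIs and -0.05 in other osteoblasts. Fosb was at -0.46 and 1.54 in the sexes, Egr1 at -0.34 and 0.87, Jun at -0.59 and 0.48 and Junb at -0.10 and 0.75, so Fos was not typical of the group. Of 15 S and G2/M phase genes 6 had an interval above 0, with Top2a at 21.8 and 33.0 CPM (0.60, 0.13 to 1.08), in 16 Control and 31 Dach1OE members. The median of these cell cycle genes was 0.54 in all members and 1.17 in Xist cells, but -0.17 in cells with Y-linked UMIs and -0.01 in other osteoblasts. Mki67 was at 1.31 in Xist cells and -1.01 in cells with Y-linked UMIs, and Birc5 at 1.17 and -0.09.

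**Figure D5:**
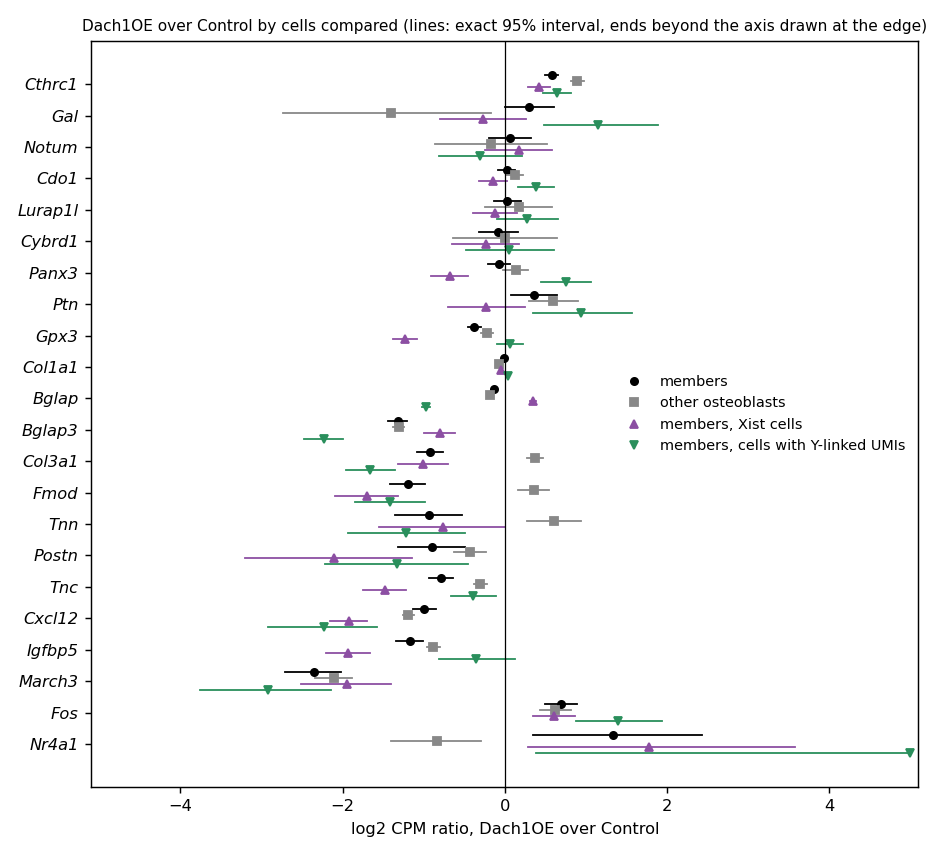
Log2 CPM ratio of Dach1OE over Control for 22 genes, in members (black circles), other osteoblasts (grey squares), members with Xist (purple triangles) and members with Y-linked UMIs (green triangles), with exact 95% intervals of counting error; ends past the axis are drawn at its edge. Cthrc1 lies above 0 in all 4 sets, March3 and Bglap3 lie below 0 in all 4, Fmod, Col3a1 and Tnn lie below 0 in members and above 0 in other osteoblasts, and Panx3 and Bglap turn between the sexes.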

How the data were processed

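The authors deposited, for each library, a table of UMI counts per cell and gene, which per the file headers came from the BD Rhapsody WTA Analysis Pipeline version 1.11 with the genome GRCm38 and GENCODE vM19. Intronic reads were counted, and the study's methods give another pipeline version. The counts as deposited were whole numbers without normalization, and those corrected for errors in the identifiers (RSEC-adjusted) were used. Whether the counting used strand is not given in the sources used here, so overlapping and antisense genes are uncertain. Coordinates come from GENCODE vM21 on the same genome, 1-based.

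The limits of the methods on cells were applied, 500 to 6000 genes and less than 25% of UMIs from mitochondrial genes. UMIs of a cell set were summed and scaled to 1000000 UMIs of that set (CPM) with exact Poisson intervals, log2 ratios of CPM have exact conditional intervals, shares have exact binomial intervals and differences of shares have Newcombe intervals, all at 95%. These cover counting error only. Levels are not per length, so that they compare cells and not genes. A gene entered with at least 50 UMIs summed over the sets compared, and was called past 2-fold with an interval on the same side of 0. There was no test, since each group was 1 library. Named genes were the genes of the rule, the 15 highest and 10 lowest against other osteoblasts by the smaller ratio of the libraries, the 15 highest and 15 lowest between libraries with the same sign in both sexes, and up to 5 genes of each list, of which some are not reported here. Others were named after their values were seen, among them the genes of the split by Notum. The members, the gene lists and these rules were chosen with earlier results of these data known. Equal depth was made by 1 random draw of 2000 UMIs a cell, and cells with fewer UMIs were left out. Doublets were left in, with Scrublet calls (scanpy 1.11.5) as an alternative. Clusters used 2000 variable genes, 30 components, 20 neighbours and the Leiden method at resolution 0.5 (igraph 0.11.9). Calculations used Python 3.11.15 with scipy 1.17.1, and the ratios and thinning were tested on simulated data. Counts for the ratios were drawn from the Poisson model that the intervals assume, so that test does not bear on spread between cells. Alternatives were raw UMIs, equal weight per cell, centring, other limits on UMIs, depth, mitochondrial share and selecting genes, each sex alone, doublets left out and, chosen after seeing the data, the top cell of each gene left out and members with both sex marks or neither.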

Additional observations from a re-analysis of the deposited data

Results flagged for a closer look

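Between the sexes, members moved in opposite directions for several genes, with both intervals away from 0. The ratio of Dach1OE over Control was -0.68 in Xist cells and 0.75 in cells with Y-linked UMIs for Panx3, and 0.34 and -0.97 for Bglap. It was 0.35 and -0.96 for Bglap2, -0.68 and 0.61 for Spp1, and -2.58 and 0.54 for Mmp13. Mmp13 was carried by few cells. Of the members with Cdo1, 37 of 277 in Control and 57 of 424 in Dach1OE had it, and 9 in each library had 10 or more UMIs. In these members 1 cell held 126 of 504 Control and 1 cell 235 of 548 Dach1OE Mmp13 UMIs. For Spp1, 1 such cell held 440 of 3347 UMIs in Dach1OE. The part of single cells in these signs was not tested. Col1a1 also had opposite signs, at -0.042 and 0.043. These differences between sexes were not tested, and each sex is taken to be 1 mouse in each library.

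Members and other osteoblasts had ratios of opposite sign, with both intervals away from 0, for several of the genes named. Fmod was at -1.20 in members and 0.36 in other osteoblasts, Col3a1 at -0.92 and 0.37, and Tnn at -0.94 and 0.61. Nr4a1 was at 1.33 and -0.84, and Hist2h3c1 at 1.25 and -0.56. Birc5 was at 0.59 and -0.31, and Col1a2 at 0.0099 and -0.049. Gal was at 0.30 and -1.40, which is a description, since Gal was used to choose both sets of cells and the second value rests on 18 Control and 9 Dach1OE UMIs. These differences were not tested either.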

How the results depend on the processing

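No paired analysis was possible because each group was 1 library. The difference in the share of members between libraries, 0.45 percentage points, was 0.27 with 1000 and 1.54 with 4000 UMIs a cell, 0.93 with at least 2 of the 5 genes, 2.31 without thinning, 0.50 over cells with at least 1 of the 3 osteoblast genes, -0.058 on raw UMIs, -0.15 with at least 4 genes, -1.65 in Xist cells and 3.60 in cells with Y-linked UMIs. Genes 2-fold higher in members than in other osteoblasts, 8, were 14 after centring on the median gene, 15 with at least 20 UMIs, 4 with at least 200, 23 with at least 4 of the 5 genes and 1 in cells with Y-linked UMIs. Genes lower, 116, were 179 with equal weight per cell, 20 with at least 200 UMIs, 22 in Xist cells and 28 in cells with Y-linked UMIs. The ratio of Cthrc1 in members over other osteoblasts, 1.09 in Control and 0.77 in Dach1OE, was 1.25 and 0.92 with equal weight, 0.97 and 0.70 with at least 4000 UMIs a cell, 0.93 and 0.67 under 10% mitochondrial UMIs, 1.40 and 0.95 with at least 4 genes, 1.24 and 0.62 in Xist cells, 0.97 in Control cells with Y-linked UMIs and 0.90 in Dach1OE after centring. Between libraries, higher and lower genes in members, 40 and 43, were 99 and 139 with at least 20 UMIs and 3 and 7 with at least 200 UMIs. With at least 4 genes they were 41 and 17 of 3267 tested, of which only 3 and 5 were among the 40 and 43. Without the cells marked by Scrublet they were 34 and 35, of which 23 and 22 were among the 40 and 43, and 6 of the 8 higher and 61 of the 116 lower genes against other osteoblasts remained. Cthrc1, 0.58, was 0.44 with at least 4 genes and 0.42 in Xist cells. Against the main direction were, with at least 4 genes, Cxcl12 (2.58), Col3a1 (2.63), Igfbp5 (0.80), Lpl (0.93) and Fos (-0.15), and in Xist cells Gal (-0.27), Bglap (0.34), Bglap2 (0.35) and Ptn (-0.23). In members with both sex marks or neither, chosen after seeing the data, Cxcl12 (2.35), Lpl (2.69), Igfbp5 (0.62), Cpa3 (0.86) and Pappa (0.42) went against it. Col1a1 was 0.0072 with equal weight, 0.0059 with centring and 0.043 in cells with Y-linked UMIs, where Gpx3 was 0.060. In members over other osteoblasts in Control, Spp1 was 0.052 and Mmp9 0.10 in Xist cells, and Fos was -0.60 in cells with Y-linked UMIs. Against other osteoblasts 8550 genes entered, 11057 with at least 20 UMIs and 3725 with at least 200. Between libraries 7493 genes entered, 10290 with at least 20 UMIs and 3041 with at least 200. Fewer cells entered with at least 4000 UMIs a cell, and fewer genes or cells within each sex. The causes of the other shifts were not tested. Low depth per cell limits the genes found in few cells, and the single library per group limits each comparison between libraries.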
